A study of Capra hircus with 10 samples.

Results

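The erythroid miRNA miR-451, miR-144 and miR-486 were followed in the mammary gland of lactating goats. They were taken by name, as every row for miR-451, miR-144 or miR-486 in the miRNA quantification tables, whatever the arm of the precursor. The tables list 1804 mature miRNA (539 known and 1265 predicted), and 4 of them were members: the 5p and 3p arms of miR-451 and the 5p and 3p arms of miR-144. No row carried the name miR-486, which is therefore not analysed here.

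The study asked how the mammary miRNA population responds when feed is withheld, and compared Alpine goats near the peak of lactation that were fed (Control, n = 4) or food deprived (FD, n = 6) for the 48 h before slaughter. All goats had received the same hay-based ration for the preceding weeks, kept access to water and were milked daily. Each goat gave 1 small RNA library from a piece of frozen gland, a mixture of secretory, stromal, vascular and blood cells. Libraries L01, L04, L06 and L10 are Control, and L02, L03, L05, L07, L08 and L09 are FD.

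miR-144 and miR-451 are made from 1 short primary transcript that GATA1 switches on as red cells form, and both are standard marks of erythroid cells and of blood in a tissue sample. miR-451 is known for an unusual maturation in which the short hairpin escapes Dicer and is cut by the Argonaute protein itself, so that its 5p arm is trimmed to the mature form and the 3p arm is destroyed. miR-144 is processed by Dicer in the usual manner, and miR-486 lies in an intron of the ankyrin gene ANK1 and is abundant in red cells and in striated muscle. In the RefSeq gene table of the goat assembly ARS1.2, MIR451 and MIR144 are neighbours with 0 genes between them, flanked by ERAL1 and FLOT2. That table holds ANK1 but no gene with the symbol MIR486, and it is a different assembly from the CHIR_1.0 build of the deposited tables, so no positions are given.

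The 4 mature sequences of the deposited tables are shown because the arms of these precursors differ in length, in seed and in their pairing. They are written 5′ to 3′ with the seed, bases 2 to 8, in capitals.
miR-451-5p: aAACCGTTaccattactga
miR-451-3p: tTTAGTAAtggtaacggttct
miR-144-5p: tGGGATATcatcatatactgt
miR-144-3p: tACAGTATagatgatgtac

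Each arm had a seed of its own, and 0 of the other rows of the tables shared any of these seeds. The abundant arm of each precursor, miR-451-5p and miR-144-3p, was listed with 19 bases, whereas both minor arms had 21. The median length of the 539 known miRNA was 22 bases, and 25 of them (4.64%) had 19 bases or fewer.

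The listed arms of miR-451 were complementary over most of their length, which is seen when the paired stretch is put in capitals.
miR-451-5p: aAACCGTTACCATTACTga
miR-451-3p: tttAGTAATGGTAACGGTTct

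The longest complementary stretch without a mismatch or a G to U pair covered 16 bases, from base 2 to base 17 of the 5p arm and from base 4 to base 19 of the 3p arm. Between the arms of miR-144 the same search found 8 bases, from base 14 to base 21 of the 5p arm and from base 2 to base 9 of the 3p arm.
miR-144-5p: tgggatatcatcaTATACTGT
miR-144-3p: tACAGTATAgatgatgtac

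Total counts ranged from 4495512 to 7506955 in Control and from 5674119 to 9842009 in FD libraries. The epithelial marker miR-141 of the labelled tissue was abundant, with 128297 ± 1674 normalized counts (SD, n = 4) for Control and 120582 ± 18736 (SD, n = 6) for FD goats. Of the erythroid markers, miR-451-5p and both arms of miR-144 had counts in all 10 libraries. In bulk tissue, more or fewer blood cells in a piece of gland and more or less of a miRNA per cell cannot be told apart.

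miR-451-5p was the most abundant of the 4 by far. Its raw count lay between 2620 and 9719 reads per library, which was 0.0583% to 0.133% of the library, and it ranked between position 49 and position 74 among the miRNA of a library. By mean normalized count (the count divided by the median-of-ratios size factor of its library) it stood at position 60 of the 490 miRNA tested.

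In Control libraries the normalized count of miR-451-5p was 5915 in L01, 4634 in L04, 3670 in L06 and 5610 in L10. In FD libraries it was 8577 in L02, 6976 in L03, 7323 in L05, 6306 in L07, 5814 in L08 and 6136 in L09. The diets overlapped only through L08, which lay below the Control library L01. Thus 5 of the 6 FD libraries lay above every Control library, and 3 of the 4 Control libraries lay below every FD library. Among the 490 miRNA tested, 3.88% had at least 5 FD libraries above every Control library and 2.24% did not overlap between diets in either direction. The smallest libraries, L06 and L01, held the lowest and the highest Control value.

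**Figure D1:**
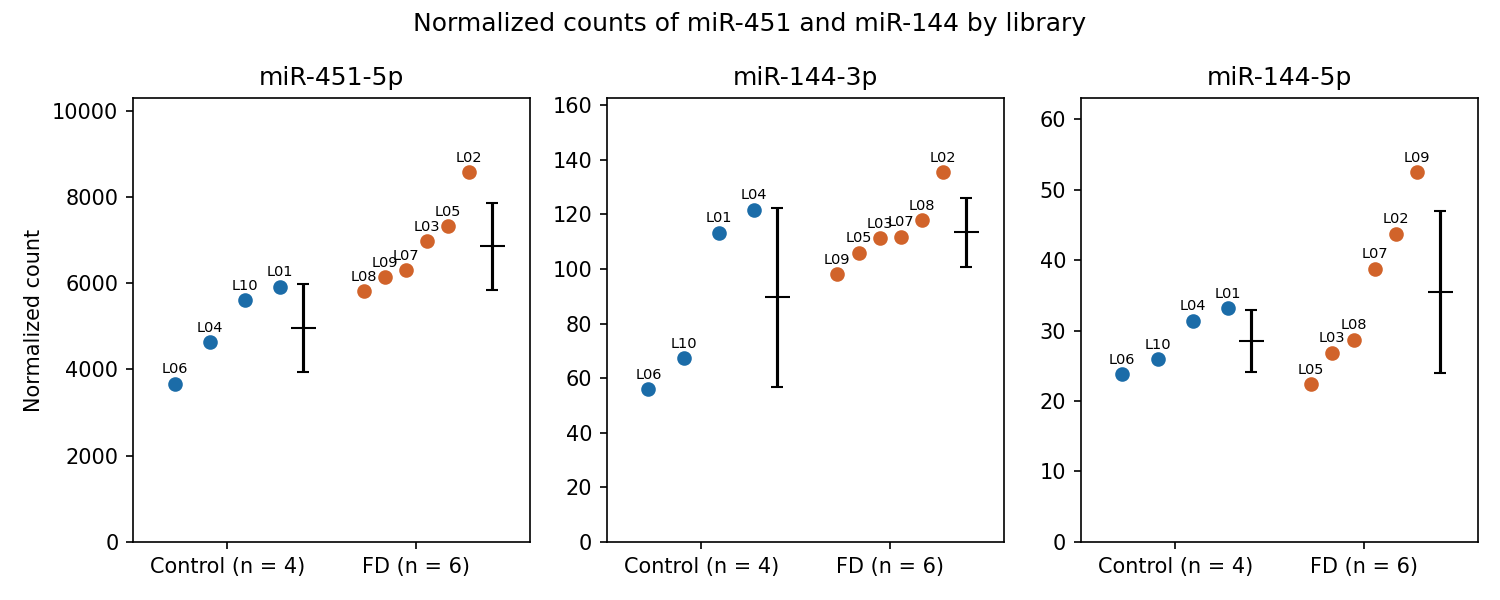
Normalized counts (linear axes from 0) of miR-451-5p, miR-144-3p and miR-144-5p in 4 Control (blue) and 6 FD (orange) libraries, sorted within a diet, with the mean and SD of each diet as a black bar at its right. For miR-451-5p, L08 was the only FD library below a Control library, whereas both arms of miR-144 overlapped widely between diets.

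The mean of miR-451-5p was 4957 ± 1017 (SD, n = 4) for Control goats and 6855 ± 1010 (SD, n = 6) for FD goats. The fold change of FD over Control was 1.37, or 0.46 on the log2 scale (SE 0.153, 95% interval 0.12 to 0.79), with an unadjusted p of 0.0111 and an adjusted p of 0.195 by the quasi-likelihood test of edgeR with Benjamini-Hochberg adjustment over the 490 miRNA tested. It did not pass the threshold of 0.1. By this test 0.0% of the 490 miRNA were called, while 77 of them (15.7%) had an unadjusted p under 0.05, with 37 (7.55%) higher and 40 (8.16%) lower in FD. DESeq2 called 26 (5.31%) and limma-voom 0, and neither called a member. The study, with an earlier version of DESeq2 and its own filter, listed miR-451-5p among the miRNA potentially affected by food deprivation, higher in FD. The unadjusted p of miR-451-5p was the 28th smallest of the 490.

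The spread of miR-451-5p between goats of the same diet was an SD of 0.25 on the log2 scale. The 50 tested miRNA nearest to it in level had a median SD of 0.21, and it lay at percentile 64 among them. Its counting error, at most 1.95% of the count in a library, was small beside this spread.

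The 3p arm of miR-144, its abundant arm, was counted 40 to 197 times per library. In Control libraries its normalized count was 113 in L01, 122 in L04, 56.0 in L06 and 67.2 in L10. In FD libraries it was 136 in L02, 111 in L03, 106 in L05, 112 in L07, 118 in L08 and 98.1 in L09. The Control libraries fell apart, since L06 and L10 lay below every FD library whereas L01 and L04 lay within the FD range. Only L02 among the FD libraries exceeded every Control library.

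The mean of miR-144-3p was 89.6 ± 32.8 (SD, n = 4) for Control goats and 113 ± 12.7 (SD, n = 6) for FD goats, with a coefficient of variation of 36.6% in Control against 11.2% in FD. The log2 fold change was 0.33 (SE 0.217, 95% interval -0.14 to 0.80, edgeR adjusted p = 0.457), so that no difference was called and the interval includes changes in both directions. It was 0.16 without L10, 0.18 without L06 and 0.50 without L04, and was not called in any of these. Counting error was 7.12% to 15.8% of the count in a library.

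The 5p arm of miR-144, its minor arm, was counted only 17 to 60 times per library. Its normalized count was 33.2 in L01, 31.4 in L04, 23.8 in L06 and 25.9 in L10 among Control libraries. Among FD libraries it was 43.8 in L02, 26.9 in L03, 22.4 in L05, 38.8 in L07, 28.7 in L08 and 52.5 in L09. FD libraries spanned the whole Control range, with 3 above every Control library and L05 below every one. The means were 28.6 ± 4.43 (SD, n = 4) and 35.5 ± 11.5 (SD, n = 6), and the log2 fold change was 0.30 (SE 0.27, 95% interval -0.28 to 0.89, edgeR adjusted p = 0.564). Without L09 it was 0.14. Counting error reached 12.9% to 24.3% of the count.

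All 3 members that passed the filter therefore had positive log2 fold changes, where 245 of the 490 miRNA tested (50.0%) did, and none was called. The 2 arms of miR-144 come from 1 precursor and share its transcript with miR-451, so these are not 3 separate observations of the diet.

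The 3p arm of miR-451 was counted once in the whole series, in the FD library L08, and did not pass the filter. It made up 1 of the 64009 counts on both arms, or 0.00156% (exact 95% interval 3.96e-05% to 0.0087%, counting error only). In Control libraries 0 of 17465 counts were on the 3p arm, which allows a share of up to 0.0172%. Among the 197 known precursors with at least 100 counts over both listed arms, this was the second lowest share of the minor arm, against a median of 2.31%. With 1 count the 3p arm could not be compared between diets.

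The arms of miR-144 were far more even. miR-144-5p took 347 of the 1452 counts on both arms, or 23.9%, a share that exceeded those of most precursors (position 167 of 197 from the lowest). Within a library the 5p share ran from 17.4% in L05 to 34.9% in L09, and the 3p arm was the more abundant in all 10 libraries. The mean log2 ratio of the 5p to the 3p arm was -1.56 ± 0.338 (SD, n = 4) for Control goats and -1.72 ± 0.483 (SD, n = 6) for FD goats. The difference of -0.15 (SE 0.26) was smaller in size than the SD of either diet. Differences at least as large were common when the diet labels were permuted (two-sided exact permutation test, p = 0.6, adjusted p = 0.743 over the 2 ratios tested).

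**Figure D2:**
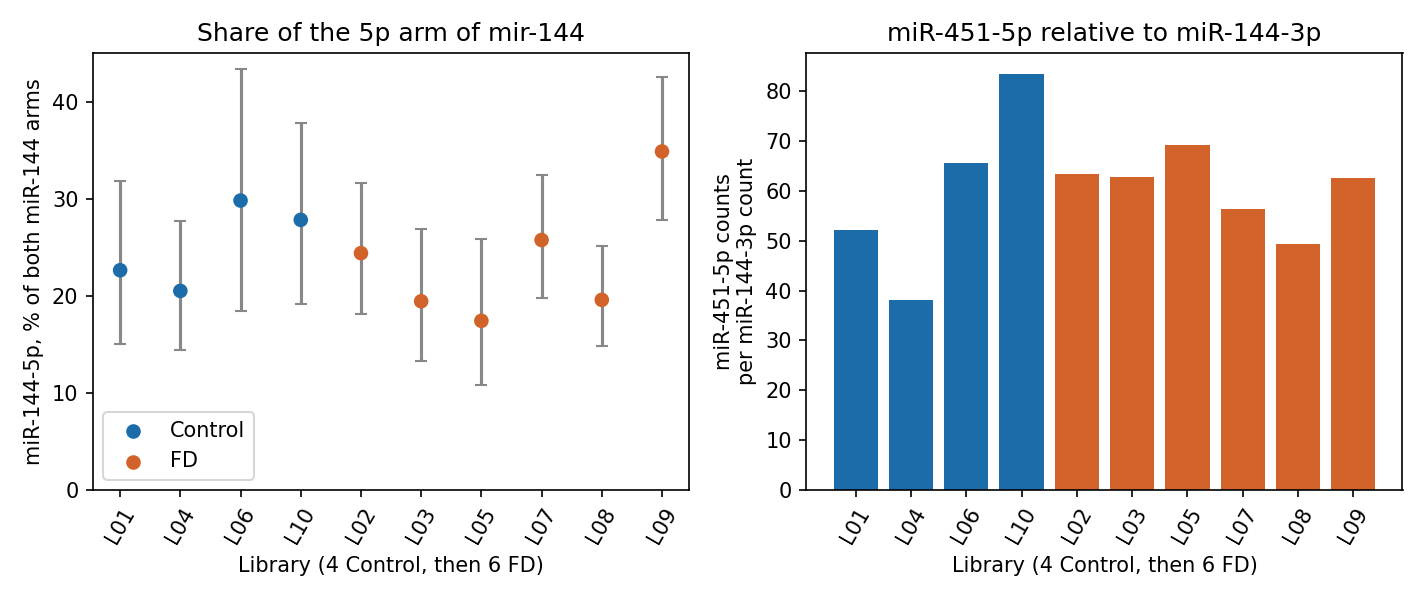
Left, miR-144-5p as a percentage of the counts of both miR-144 arms in each library, with exact 95% intervals for counting error, from 17.4% in L05 to 34.9% in L09. Right, counts of miR-451-5p per count of miR-144-3p in each library, lowest in L04 (38.1) and highest in L10 (83.5), both Control.

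The abundant arms of the 2 neighbouring miRNA differed by more than an order of magnitude. Over the 10 libraries the geometric mean was 58.8 counts of miR-451-5p per count of miR-144-3p. Both are listed with 19 bases, but the counts carry no correction for how readily each sequence is ligated and amplified. The ratio of the counts was 52.2 in L01, 38.1 in L04, 65.5 in L06 and 83.5 in L10 among Control libraries, and it lay between 49.3 and 69.1 in FD libraries. The widest and the narrowest ratio thus both came from fed goats.

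On the log2 scale the ratio of miR-451-5p to miR-144-3p was 5.83 ± 0.479 (SD, n = 4) for Control goats and 5.91 ± 0.168 (SD, n = 6) for FD goats. The difference of 0.07 (SE 0.249) was below the SD of either diet. Differences at least as large were common when the diet labels were permuted (two-sided exact permutation test, p = 0.743, adjusted p = 0.743, where the smallest p this test can give is 0.00476). Without L04 the difference was -0.12. A ratio within a library does not depend on the normalization.

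By level the 4 members kept 1 order in every library, with miR-451-5p first, miR-144-3p next, then miR-144-5p and last miR-451-3p at 0 or 1 count. Over all libraries the normalized counts of these neighbours did not overlap either, with 56.0 to 136 for miR-144-3p against 22.4 to 52.5 for miR-144-5p.

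Across the 10 libraries the log2 normalized counts of miR-451-5p and miR-144-3p had a Pearson r of 0.667 (permutation p = 0.0383, adjusted p = 0.115 over 3 pairs) and a Spearman rho of 0.309 (permutation p = 0.387). L06 had the lowest value of both miRNA and L02 the highest of both. Without these libraries together r was -0.00287. Leaving out the extremes of both miRNA also narrows their range, so this cannot decide whether the relation rested on the pair of them. Without L06 alone it was 0.292 and without L02 alone 0.595. Once the mean of each diet was subtracted, r was 0.485 (permutation p = 0.319), and it was 0.493 within the 4 Control and 0.591 within the 6 FD libraries. Without L04, in which miR-144-3p was high and miR-451-5p low, r was 0.838.

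miR-451-5p and miR-144-5p had a Pearson r of 0.342 (permutation p = 0.334, adjusted p = 0.334) and a Spearman rho of 0.273 (permutation p = 0.447). Without L06 and L02 r was -0.205, and with 1 library left out it was 0.557 without L05, 0.153 without L02 and 0.13 without L06. The 2 arms of miR-144 had a Pearson r of 0.444 (permutation p = 0.192, adjusted p = 0.288) and a Spearman rho of 0.491 (permutation p = 0.154), and without L06 and L10 r was 0.00631. Without L06 alone it was 0.283. Within diets the arms of miR-144 had an r of 0.975 over the 4 Control and 0.0353 over the 6 FD libraries. The points of each pair share their library and its size factor, and the low counts of miR-144-5p add counting error.

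**Figure D3:**
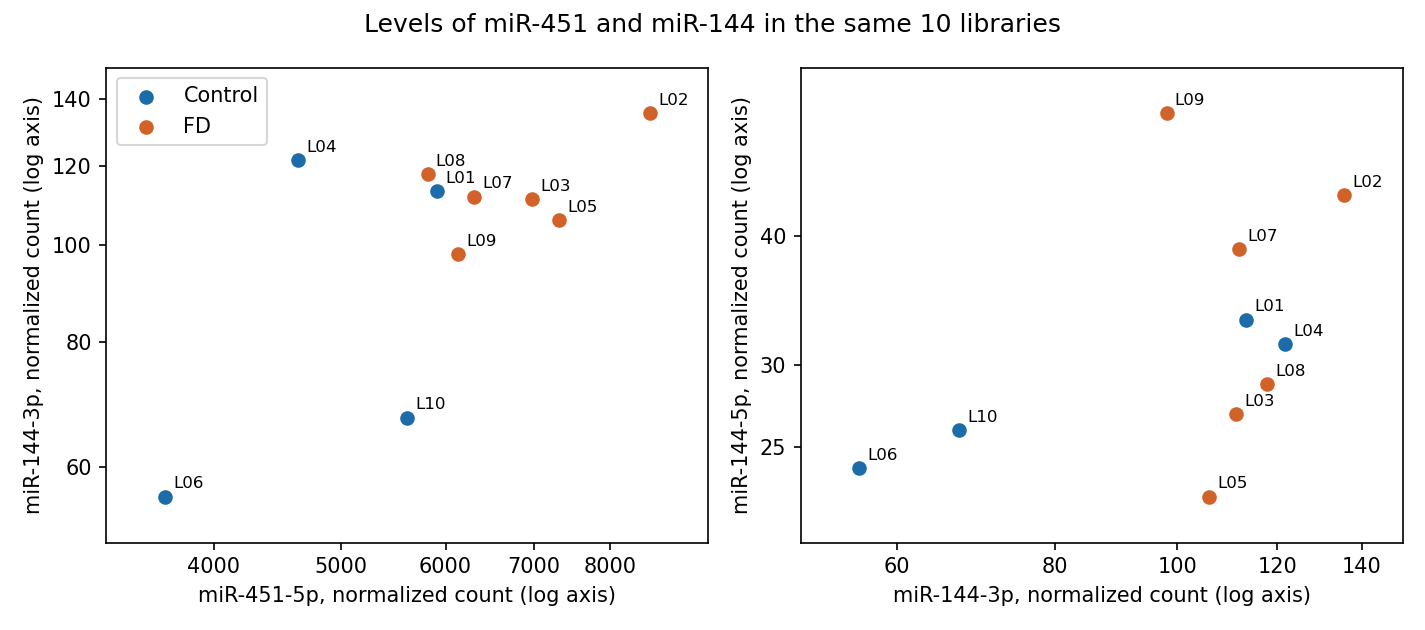
Normalized counts (both axes logarithmic) of miR-144-3p against miR-451-5p, left, and of miR-144-5p against miR-144-3p, right, with 1 point per library, Control in blue and FD in orange. L06 lies at the lower left of both plots, and L02 at the upper right of the left plot; without L06 and L02 the r of 0.667 of the left plot was -0.00287.

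As a description, the tested miRNA outside the members whose log2 normalized counts followed a member most closely over the 10 libraries were named, out of 487. The closest to miR-451-5p was miR-126-3p, a miRNA of endothelial cells, with r = 0.900 (0.777 once the mean of each diet was subtracted). The predicted miRNA chr8_12740_mt and chr26_33674_mt came next, with r = 0.854 and r = 0.843. For miR-451-5p, 18 of these 487 miRNA had a higher r than its neighbour miR-144-3p had. In the other direction, 6 of the 487 had a higher r with miR-144-3p than miR-451-5p had.

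For miR-144-3p the closest were the predicted miRNA chr29_35293_mt (r = 0.791) and chrX_40282_mt (r = 0.775), followed by miR-126-3p (r = 0.768). For miR-144-5p they were chr2_1990_mt (r = 0.813), miR-1468-5p (r = 0.809) and chr24_31948_st (r = 0.795). Only miR-126-3p was therefore among the closest of more than 1 member.

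Other miRNA known to be abundant in red cells, although all are also made by other cells, were taken from a list of 16 names. They had 27 rows, of which 18 were tested. Of these, 16 had a log2 fold change above 0 and 2 below, with a median of 0.25, against 50.0% above 0 and a median of -0.00041 over all 490. edgeR called 0 of them, 2 had an unadjusted p under 0.05, both higher in FD (7.55% of the 490), and DESeq2 called 0 (5.31% of the 490). miR-185 and miR-210 were without a row, and of miR-92a only the 5p arm was listed. The 18 tested include both arms of miR-15b, miR-16a, miR-16b, miR-20a and miR-106b, so they are not 18 separate observations of the diet.

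Those with an unadjusted p under 0.05 were the most abundant arms of the miR-16 family, which is made in most cell types. miR-16a-5p was at 23977 ± 4028 (SD, n = 4) for Control goats and 31688 ± 5034 (SD, n = 6) normalized counts for FD goats (log2 fold change 0.39, edgeR adjusted p = 0.269). miR-16b-5p was at 3135 ± 532 and 4158 ± 808 (log2 fold change 0.39, edgeR adjusted p = 0.304). The summed normalized count of the red cell list was 47734 to 67551 in Control and 60420 to 93551 in FD libraries, so that the diets overlapped in the sum. Of the tested miRNA on the list only miR-25-3p did not overlap, with 16312 to 18628 in Control and 19895 to 26124 in FD libraries (log2 fold change 0.25, edgeR adjusted p = 0.313). Every FD library lay above every Control library in 1.22% of the 490.

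The miRNA known to fall as red cells mature (miR-221, miR-222, miR-155, miR-223, miR-150 and miR-24) had 9 rows tested. Of these 8 had a log2 fold change above 0 and 1 below, against 50.0% above 0 among the 490, with a median of 0.78. edgeR called 0 of them. An unadjusted p under 0.05 and a higher level in FD were found for 6 of the 9, against 7.55% of the 490, and DESeq2 called 3, against 5.31%. These 6 were both arms of miR-221, both arms of miR-223, miR-222-3p and miR-150. Arms of 1 precursor are not separate observations of the diet. miR-223-3p, a miRNA of the myeloid lineage, was at 245 ± 109 (SD, n = 4) for Control goats and 552 ± 236 (SD, n = 6) for FD goats (log2 fold change 1.15, edgeR adjusted p = 0.195). miR-222-3p, which is made in many cell types, was at 812 ± 172 and 1408 ± 528 (log2 fold change 0.78, edgeR adjusted p = 0.237).

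Values for miRNA of other cells of the gland are given beside these, and their part in the values of miR-451 and miR-144 was not tested. Of 7 leukocyte miRNA tested, 6 were above 0 and 1 below on the log2 scale (median 0.67), against 50.0% above 0 among the 490. An unadjusted p under 0.05 and a higher level in FD were found for 4, against 7.55% of the 490, and DESeq2 called 2, against 5.31%. Their summed level was 35952 to 68420 in Control and 42674 to 132239 in FD libraries, and miR-142 was without a row. Most of that sum was miR-146b-5p, with a Control mean of 44427 of the 57069 of the list. This list shares miR-223, miR-150 and miR-155 with the list above. The 4 with an unadjusted p under 0.05 include both arms of miR-223, so they are not 4 separate observations of the diet.

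Both arms of miR-126, the endothelial miRNA, had an unadjusted p under 0.05 and were higher in FD, against 7.55% of the 490, and DESeq2 called 1 of them, against 5.31%. The arms come from 1 precursor, so they are not separate observations of the diet. miR-126-3p was at 17218 ± 2676 (SD, n = 4) for Control goats and 22489 ± 1088 (SD, n = 6) for FD goats, a log2 fold change of 0.37 (edgeR adjusted p = 0.195). Every FD library lay above every Control library for miR-126-3p, as in 1.22% of the 490 miRNA tested. The more abundant miR-126-5p was at 116635 ± 10374 for Control and 145894 ± 23130 for FD goats (log2 fold change 0.31, edgeR adjusted p = 0.296). For it the diets overlapped, with 4 FD libraries above every Control library. The summed level of both arms was 117544 to 144955 in Control and 136542 to 197735 in FD libraries. The study listed miR-126-3p, miR-222-3p and both arms of miR-223 as potentially affected by food deprivation, higher in FD. Its RT-qPCR of miR-126-3p, miR-222-3p and miR-223-3p went in the same direction, without a significant difference.

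Of the 10 epithelial miRNA tested, 8 were below 0 and 2 above (median -0.20), against 50.0% above 0 among the 490. The 8 below were miR-141, miR-429 and both arms of miR-200a, miR-200b and miR-200c. The 2 above were the arms of miR-205 (log2 fold change 0.41 for 5p and 0.20 for 3p). Arms of 1 precursor are among both, so these are not 10 separate observations of the diet. An unadjusted p under 0.05 was found for 2 of the 10, both lower in FD, against 8.16% of the 490. The summed level of the epithelial list was 221821 to 245827 in Control and 173950 to 243961 in FD libraries, and miR-203 and miR-375 were without a row. Of 8 stromal and smooth muscle miRNA, 6 were above 0 and 2 below (median 0.28), with both arms of miR-143, miR-145 and miR-214 among them. An unadjusted p under 0.05 was found for 0 of the 8, against 15.7% of the 490 in either direction. Their summed level was 690407 to 928572 in Control and 579433 to 1136233 in FD libraries, nearly all of it miR-143-3p. Of the 4 striated muscle miRNA tested, 3 were above 0 and 1 below (median 0.07). Here too 0 had an unadjusted p under 0.05, against 15.7% of the 490. Their summed level was 622 to 1212 in Control and 594 to 1486 in FD libraries, and miR-208a was without a row. In none of these lists did edgeR call a miRNA. DESeq2 called 0 in the epithelial, the stromal and smooth muscle, and the striated muscle lists, against 5.31% of the 490.

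**Figure D4:**
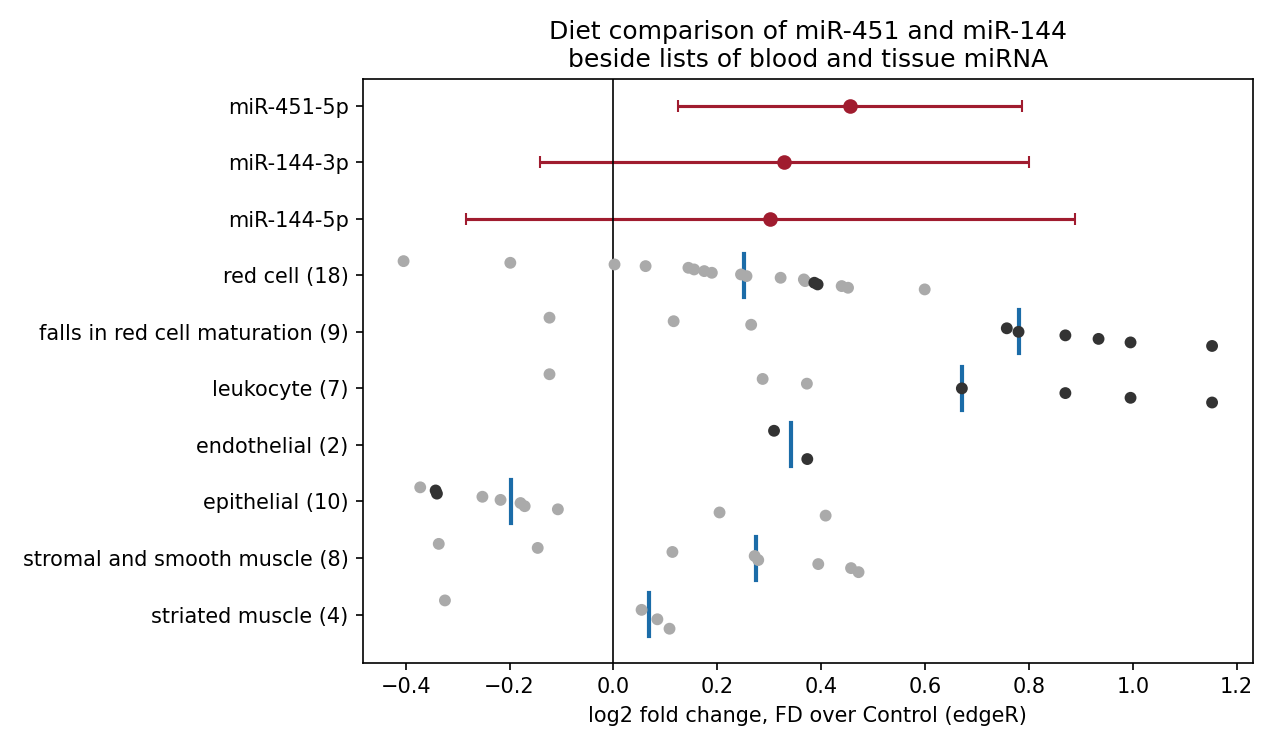
Log2 fold changes of FD over Control from edgeR, with 95% intervals for miR-451-5p, miR-144-3p and miR-144-5p (red), and for the tested miRNA of 7 lists (1 point each, dark where the unadjusted p was under 0.05, blue bar at the median, number tested in parentheses). The members lay at 0.46, 0.33 and 0.30, and the medians of the lists were 0.25 (red cell), 0.78 (falls in red cell maturation), 0.67 (leukocyte), 0.34 (endothelial), -0.20 (epithelial), 0.28 (stromal and smooth muscle) and 0.07 (striated muscle).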

How the data were processed

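Small RNA libraries of 10 goats (4 Control, 6 FD, 1 library per goat) were analysed. The counts are the deposited numbers of reads per mature miRNA, not normalized. The authors trimmed adapters (Cutadapt), kept reads of 17 to 28 nt, aligned these to CHIR_1.0 and counted them with the quantifier of miRDeep2 on known and predicted precursors, with the mature miRNA of miRBase and those predicted, and then removed redundant miRNA. The notes of the submitters also name CASAVA 1.8.2. RNA came from about 150 mg of gland by TRIzol and a column. The preparation is described without molecular identifiers, so the intervals of arm shares and the limits for 0 counts cover counting error only, while the intervals of fold changes rest on the spread between goats. The normalized columns of the same tables and the table of predicted precursors were not used.

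The members and the lists were chosen with earlier results of these data known. miRNA were tested when their highest normalized count was above 28 (490 of 1804, and 3 of the 4 members). Diets were compared in all 10 libraries with edgeR 4.0.16 (TMM, glmQLFit, glmQLFTest, two-sided, Benjamini-Hochberg, threshold 0.1). Log2 fold changes are FD over Control, with the SE taken from the F statistic. Ratios within a library (0.5 added to each count, means of at least 10 counts) were tested by exact permutation of the diet labels (210 arrangements), and correlations of log2(normalized count + 1) by 100000 permutations, two-sided, at 0.05. The ratio of the miR-451 arms had too few counts. The miRNA named are the members, those of the 7 lists, and for each tested member the 3 with the highest r. The list members given with values were picked after their values were seen. In the lists, a name listed under 2 species was used once, by its first row.

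The alternatives were DESeq2 1.42.0, limma-voom (limma 3.58.1), other scalings and filters, random thinning of every library to 4495512 counts, and fits that leave out 1 library. The fits were tested on simulated data. Totals of 4495512 to 9842009 counts make the counting error of miR-451-5p small but not that of miR-144. Other software was R 4.3.3, Python 3.11.15, matplotlib 3.10.9, pandas 2.3.3, scipy 1.17.1 and numpy 2.4.6.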

Additional observations from a re-analysis of the deposited data

Results flagged for a closer look

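In 1 of 26 groups of libraries examined (members, ratios, library totals and summed lists, by diet) a library stood apart from the others of its diet. The summed normalized count of the stromal and smooth muscle list was 928572 in the Control library L04, against 690407 to 709462 in the other Control libraries, a gap of 0.92 of the range of the diet. Nearly all of this sum is miR-143-3p, whose Control mean was 722366 of the 756168 of the list, so the value says little of the other miRNA on it. The rule flags about 1 of 20 groups by chance, and how often chance gives a gap as large as this was not computed. L04 was also the library with the lowest ratio of miR-451-5p to miR-144-3p. No value of miR-451-5p or of either arm of miR-144 stood apart in this way.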

How the results depend on the processing

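The log2 fold change of miR-451-5p stayed above 0 and uncalled in all 21 alternatives, between 0.35 (without L06, adjusted p = 0.464) and 0.54 (without L01), with adjusted p-values from 0.111 (DESeq2) to 0.464. Those of miR-144-3p (0.16 to 0.50, 21 alternatives) and miR-144-5p (0.13 to 0.41, 20 alternatives) also stayed above 0 and uncalled. miR-144-5p fell under the filter of 100. The number of miRNA called by edgeR, 0 of 490, was 26 with DESeq2, 5 without a filter and 1 among known miRNA alone, and 0 to 1 with a library left out (1 without L02). The difference in the ratio of miR-451-5p to miR-144-3p turned to -0.12 without L04 and ranged up to 0.25 with other libraries left out, and that of the miR-144 arms from -0.32 to -0.03. The correlation of miR-451-5p with miR-144-3p was -0.00287, and with miR-144-5p -0.205, without the 2 libraries farthest from the median. With 1 library left out the first ran from 0.292 (without L06) to 0.838 (without L04, adjusted p = 0.00777), the second from 0.13 (without L06) to 0.557 (without L05), and that of the miR-144 arms from 0.283 (without L06) to 0.614 (without L09). The cause was not tested. No paired analysis was possible because the goats of the 2 diets were separate animals and replicate numbers were given in accession order.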
